A study of Mus musculus with 8 samples.

Results

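The cell-cycle and mitosis gene families were followed in the tibialis anterior, a shin muscle made up mostly of fast fibres, after loss of its nerve. The members were all probe sets of the deposited table annotated with exactly 1 gene symbol that begins Mcm, Ccna, Ccnb, Ccnd, Ccne, Cdk, Cdc, Orc or E2f followed by a number, or Cdkn, Cenp, Aurk, Bub1 or Bub3, together with Mki67; Cdkn1a was left out by the rule. They came to 110 probe sets for 110 genes, of 14860 genes measured. The choice rests on gene names, not on measured values. By what the genes are known to do, 75 act in replication, cell-cycle control or mitosis and are called the core here. The other 35 match by name only or have further functions, such as the Cdks of transcription and the binding partners of the GTPase Cdc42.

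The denervated group held 4 muscles of male C57BL/6 mice aged 8 weeks, taken 7 days after the left sciatic nerve was cut. The innervated group held 4 contralateral muscles of mice operated in the same way, so no unoperated or sham-operated animal served as control. Total RNA of each muscle was hybridised to 1 array, and values are log2 intensities. Changes are given as the mean of denervated arrays minus that of innervated arrays. The SE comes from limma, in which arrays of equal replicate number were treated as a pair, and a gene passed at a Benjamini-Hochberg adjusted p under 0.05 over all 14860 genes. Nothing in the labels tells whether each array of a group stands for its own animal, or whether equal numbers mark 1 animal.

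A cell prepares to divide by loading the Mcm2 to Mcm7 helicase on replication origins bound by the origin recognition complex. D-type and E-type cyclins with their kinases then release the E2F factors, and A-type and B-type cyclins with Cdk1 drive replication to its end and start mitosis. The Cdk inhibitors hold these kinases back, and the centromere proteins, Aurora kinases and Bub proteins attach the chromosomes to the spindle and time their separation. Muscle fibres have left the cell cycle for good, so in adult muscle division is known from satellite cells, which are the muscle stem cells, and from immune, vascular and connective tissue cells. In RNA of whole muscle, more dividing cells cannot be told apart from more RNA of these genes per cell.

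Promoters of 5 genes are shown because the results turn on them: Mcm6, Mki67 and Cenpj rose and Aurka fell. The fifth, Cdk1, carries the same kinds of motif as Mki67 and did not pass the test. The sequences are those of RefSeq on GRCm38.p6, each from 250 bases before the annotated start to 50 after it, written 5′ to 3′. Capitals mark matches on either strand to an E2F motif, to the cell-cycle homology region TTTGAA, or to the CCAAT box. The E2F motif was searched as TTCCCGC and, with other inner bases, as TTGGCGC. It was also searched as TTCGCGC and, with its inner bases turned, as TTGCCGC. E2F letters on opposite strands can overlap.
Mcm6, chr1:128359656-128359955, minus strand: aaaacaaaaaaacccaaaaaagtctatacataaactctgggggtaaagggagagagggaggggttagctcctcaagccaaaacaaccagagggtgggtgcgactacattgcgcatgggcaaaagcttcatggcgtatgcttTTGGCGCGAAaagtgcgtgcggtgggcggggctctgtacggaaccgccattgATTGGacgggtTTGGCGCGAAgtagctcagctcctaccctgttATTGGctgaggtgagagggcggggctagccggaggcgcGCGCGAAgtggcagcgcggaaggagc
Mki67, chr7:135716330-135716629, minus strand: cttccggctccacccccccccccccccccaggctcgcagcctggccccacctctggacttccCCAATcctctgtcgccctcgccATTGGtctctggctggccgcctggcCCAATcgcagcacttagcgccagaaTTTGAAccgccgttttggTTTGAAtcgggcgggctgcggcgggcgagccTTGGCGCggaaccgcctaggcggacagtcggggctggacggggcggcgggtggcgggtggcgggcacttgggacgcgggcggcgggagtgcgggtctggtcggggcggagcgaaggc
Cenpj, chr14:56571797-56572096, minus strand: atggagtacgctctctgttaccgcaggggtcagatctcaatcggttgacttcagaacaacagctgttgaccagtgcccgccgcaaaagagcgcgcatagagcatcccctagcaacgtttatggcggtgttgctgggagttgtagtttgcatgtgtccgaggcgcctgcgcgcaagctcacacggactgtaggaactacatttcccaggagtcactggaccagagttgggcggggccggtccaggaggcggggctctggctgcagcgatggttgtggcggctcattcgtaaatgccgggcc
Aurka, chr2:172370521-172370820, minus strand: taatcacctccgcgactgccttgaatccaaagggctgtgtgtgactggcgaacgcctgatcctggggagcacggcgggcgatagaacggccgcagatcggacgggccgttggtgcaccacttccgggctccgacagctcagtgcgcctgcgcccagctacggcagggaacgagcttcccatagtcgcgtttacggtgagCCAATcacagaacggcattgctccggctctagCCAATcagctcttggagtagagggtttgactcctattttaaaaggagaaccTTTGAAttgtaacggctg
Cdk1, chr10:69352863-69353162, minus strand: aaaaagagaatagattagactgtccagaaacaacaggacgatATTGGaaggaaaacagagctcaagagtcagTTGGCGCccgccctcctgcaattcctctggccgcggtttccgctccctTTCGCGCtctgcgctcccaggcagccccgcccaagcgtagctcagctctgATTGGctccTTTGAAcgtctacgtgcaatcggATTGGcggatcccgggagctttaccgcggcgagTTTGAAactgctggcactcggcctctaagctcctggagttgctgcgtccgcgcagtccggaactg
The Mcm6 window held 5 matches to the E2F letters, in part overlapping ones on opposite strands, and 2 CCAAT boxes. In Mki67, 1 E2F match, 2 homology regions and 3 CCAAT boxes were found, and Cdk1 held 2, 2 and 3 of them. The Cenpj window held none of the motifs searched. The Aurka window held no E2F match, 2 CCAAT boxes and 1 homology region, the last 32 bases past the start. A promoter was listed for 94 of the 110 members, and the first listed window was read for each. E2F letters stood in 25 of 64 core promoters (39.1%) and in 4 of 30 others (13.3%), against 9.69% of 27025 RefSeq promoters of the same length. CCAAT was found in 62.5% of the core promoters and 40% of the others, against 37.9% of all, and TTTGAA in 25% and 20%, against 18.1%. A match describes the letters only and shows no binding.

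The arrays of replicate 3 stood apart from the others, and this touches every result below. Array medians lay between 5.84 and 6.00, but the SD over probe sets was 1.25 in denervated replicate 3 and 1.36 in innervated replicate 3, while the remaining arrays had SDs of 1.45 to 1.56. Over probe sets, denervated replicate 3 had correlations of 0.927 to 0.930 with its own group. Dim genes read higher and bright genes lower on it. The counts and called members are therefore given with and without replicate 3. Markers of muscle fibres were high on every array, with means of 11.25 to 11.67 in denervated and 11.77 to 11.95 in innervated muscle; 2 of the 8, Ckm and Mylpf, fell.

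Of the 110 members, 3 rose, 7 fell and 100 did not pass. That is 9.09% called, against a background of 8.45% of all genes in the same fit (3.56% higher and 4.89% lower). Without replicate 3, 2 rose and 7 fell, or 8.18% of the members, against 11.1% of all genes (5.8% higher and 5.26% lower). The members' share was thus near that of all genes in both. The genes that rose were Mki67, Cenpj and Mcm6, and those that fell were Cdk19, Cdc42ep3, Cdc42ep2, Aurka, Cdc14a, Cdk10 and Cenpk. In the core 3 rose and 3 fell; outside it none rose and 4 fell. At an unadjusted p under 0.05 in limma, without regard to direction, there were 12 of the 75 and 6 of the 35, against 21.7% of all genes. The median change of the members was 0.02 ± 0.08 (SD of the 4 pair medians) and that of the core 0.01 ± 0.11, beside -0.01 for all genes. A change smaller than 0.5 was measured for 99 of the 110 members, as for 13335 of the 14860 genes. All 4 denervated values lay above all innervated ones for 7 members and below them for 9; of all genes 12.7% had groups apart, 5.32% above and 7.4% below.

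**Figure D1:**
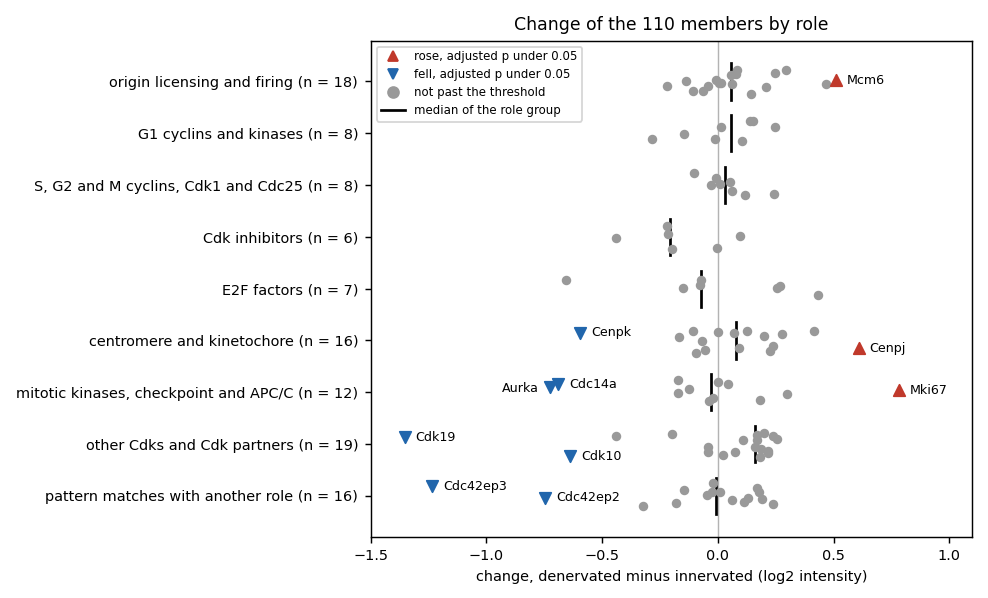
Change of each member (denervated minus innervated, log2 intensity) by role group, with all replicates. Triangles are members past the threshold, grey points the others and black bars the group medians; 3 members rose, 7 fell, and the medians lie between -0.21 and 0.16.

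Among the genes of origin licensing and firing, 1 of 18 rose and the other 17 did not pass. The group's median was 0.06 ± 0.13, the error again being the SD over pairs. Mcm6, a subunit of the replicative helicase, read 6.04, 6.34, 6.59 and 6.28 in denervated replicates 1 to 4, against 5.66, 5.69, 5.85 and 6.01 in innervated ones. The groups did not overlap, and every pair was higher in the denervated muscle. Its change was 0.51 (SE 0.12, limma adjusted p = 0.0418), or 1.43-fold. The call was lost without replicate 3 (change 0.43, adjusted p = 0.0629), without the pairing (0.0736), after quantile normalization (0.0517) and without each of replicates 1, 2 and 4 (0.129, 0.150 and 0.091).

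The other helicase subunits did not pass. Mcm4 changed by 0.25 (95% interval -0.01 to 0.50), Mcm7 by 0.14 (-0.28 to 0.57), Mcm5 by 0.06 (-0.21 to 0.33), Mcm3 by 0.01 (-0.32 to 0.33) and Mcm2 by -0.22 (-0.52 to 0.09). With the related genes Mcm8, Mcm9 and Mcm10, the 8 uncalled Mcm genes ranged from -0.22 to 0.25. The 6 origin recognition genes ranged from -0.07 to 0.47, with the highest value in Orc6 (adjusted p = 0.0639), whose groups did not overlap. Orc1, the large subunit, changed by -0.04 (-0.32 to 0.23), and Orc3 by 0.21 (-0.05 to 0.47). Cdc6, the loader of the helicase, read 4.92, 4.69, 5.88 and 4.66 in denervated muscle, against 4.68, 5.02, 4.57 and 4.70 in innervated muscle. Denervated replicate 3 alone was high, and the change of 0.29 with all replicates was -0.04 without it.

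None of the 8 G1 cyclins and kinases passed limma's test, and 1 had an unadjusted p under 0.05. The D cyclins, which couple growth signals to the cycle, changed by 0.10 for Ccnd1 (SE 0.12), -0.28 for Ccnd2 (SE 0.12, adjusted p = 0.229) and 0.01 for Ccnd3 (SE 0.12). Ccnd2 was lower in the denervated muscle of every pair, though the groups overlapped. Cdk4, a kinase partner of the D cyclins, read 7.66, 7.23, 6.69 and 7.62 in denervated muscle and 7.26, 6.99, 7.08 and 7.31 in innervated muscle. Denervated replicate 3 was the lowest of its group; the change was 0.14 with it and 0.32 without it (adjusted p = 0.104). Cdk6 and Cdk2 changed by 0.25 and 0.15. The E cyclins, partners of Cdk2 at the start of replication, changed by -0.01 for Ccne1, which was -0.25 without replicate 3, and -0.15 for Ccne2. Over the 8 genes the 95% intervals ran from -0.57 to 0.59.

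The genes that drive replication to its end and the entry into mitosis showed no called change either. None of the 8 A-type and B-type cyclins, Cdk1 and Cdc25 phosphatases passed, and none had an unadjusted p under 0.05. Cdk1, the mitotic kinase, read 5.26, 5.26, 5.82 and 4.84 in denervated muscle, against 5.61, 4.95, 5.56 and 5.09 in innervated muscle. The values overlapped throughout, with a change of -0.01 (95% interval -0.35 to 0.33). Ccna2, cyclin A2, changed by 0.06 (-0.21 to 0.33), and Ccnb2, cyclin B2, by 0.24 (-0.09 to 0.57). Ccnb3 changed by -0.10. All 8 genes were highest in denervated replicate 3 among the denervated arrays. Their median was 5.83 there, against 5.29, 5.11 and 5.04 in denervated replicates 1, 2 and 4. All 8 lay below the median level of all genes, 3 of them in the dimmest 25%. Denervated replicate 3 was the highest denervated array for 77.8% of all genes in the dimmest 25% and for 63.3% in the next range. The median change of these genes was 0.03 with all replicates and -0.10 without replicate 3.

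**Figure D2:**
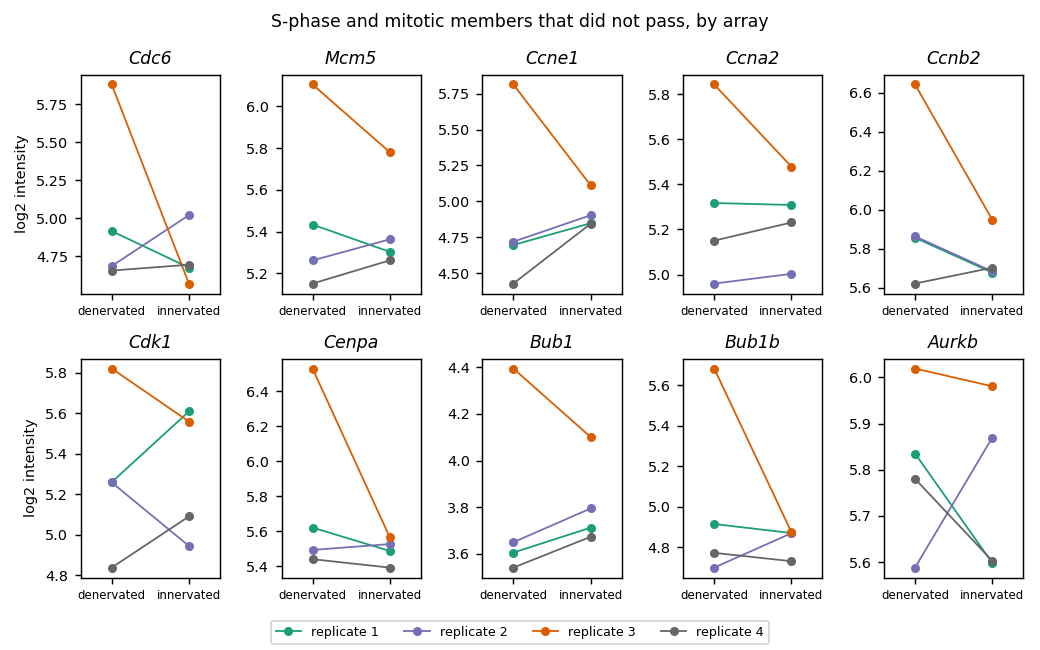
Log2 intensity of 10 members of S phase and mitosis that did not pass, 1 line per replicate number from denervated (left) to innervated (right), each panel with its own axis. Denervated replicate 3 is the highest value in all 10 panels, such as 5.88 for Cdc6 and 6.53 for Cenpa. With it, the groups overlap in every panel. The 10 genes are a selection. Over all 75 core members, denervated replicate 3 is the highest denervated array for 44 (58.7%), against 47.5% of all genes. Among replicates 1, 2 and 4, all denervated values lie below the innervated ones for Ccne1 (4.43 to 4.72 against 4.84 to 4.90). The same holds for Bub1 (3.54 to 3.65 against 3.67 to 3.79). Both genes are dim, and neither passed without replicate 3 (limma adjusted p = 0.216 for Ccne1 and 0.514 for Bub1). The share of all genes with groups apart among replicates 1, 2 and 4 was not counted. No conclusion is therefore drawn from the separation of Ccne1 and Bub1.

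Mki67, which encodes the chromosome-coating protein Ki-67 used to mark dividing cells, had the largest rise among the members. It read 6.36, 5.64, 7.76 and 6.02 in denervated replicates 1 to 4, against 5.54, 5.19, 6.24 and 5.67 in innervated ones. Each denervated array was above its own pair, by 0.82, 0.45, 1.52 and 0.35, but the groups overlapped, since innervated replicate 3 lay above denervated replicates 2 and 4. The change was 0.78 (SE 0.19, limma adjusted p = 0.0492), or 1.72-fold, and 0.54 (SE 0.13, adjusted p = 0.0392) without replicate 3. The call rests on the pairing: it was lost without it (adjusted p = 0.383) and with the pairing as a random effect (0.162). It was also lost after quantile normalization (0.0777) and without replicates 1, 2 and 4 (0.192, 0.086 and 0.0665).

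Leukocyte and macrophage markers moved in the same samples. Of 10 symbols listed, 1 of them Emr1, an older name of Adgre1, 8 were measured. Of these 8 markers, 3 rose (Cd68, Tyrobp and Fcer1g), or 4 without replicate 3, with Ptprc. Their mean level was 6.65, 6.40, 7.33 and 6.55 in denervated replicates 1 to 4, against 5.95, 5.93, 6.17 and 5.81 in innervated ones, so denervated replicate 3 was highest for these markers as for Mki67. Ptprc, which encodes CD45, read 9.34 there, against 5.97, 6.10 and 6.07 on denervated replicates 1, 2 and 4. Over the other 7 markers the means were 6.75, 6.44, 7.04 and 6.62 in denervated replicates 1 to 4, against 6.03, 5.97, 6.18 and 5.86 in innervated ones. Satellite cell markers, all 8 measured, lay between 6.08 and 6.24 in denervated and between 6.14 and 6.22 in innervated muscle, and 1 of them, Cd34, fell (adjusted p = 0.0492), which did not hold without replicate 3 (0.0649). Of 8 endothelial markers 3 fell with or without replicate 3, at 6.40 to 6.79 in denervated and 6.75 to 7.25 in innervated muscle. The fibroblast markers measured, 6 of 8, lay at 8.34 to 8.77 in denervated and 8.31 to 8.96 in innervated muscle, and 1, Lum, rose; without replicate 3 Lum rose and Col1a1 and Col1a2 fell, with changes of -0.67 and -0.63. The part of these cells in the change of Mki67 was not tested.

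Among the mitotic kinases, checkpoint genes and subunits of the anaphase-promoting complex, 2 of 12 fell, and Mki67, counted with them, was the only one that rose. Aurka, the kinase of centrosomes and spindle poles, read 5.78, 5.87, 5.95 and 5.79 in denervated muscle, against 6.64, 6.48, 6.41 and 6.76 in innervated muscle. All 4 denervated values lay below all innervated ones, within a narrow range. The change was -0.73 (SE 0.12, adjusted p = 0.0118), or 1.65-fold lower, and -0.81 without replicate 3 (adjusted p = 0.0062). Its relative Aurkb, the kinase of the chromosomal passenger complex, changed by 0.04 (95% interval -0.24 to 0.33). The difference between the changes of Aurka and Aurkb was not tested.

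Cdc14a, a phosphatase related to the mitotic exit phosphatase of yeast, read 6.90, 7.21, 6.84 and 6.99 in denervated muscle and 7.58, 7.59, 7.82 and 7.69 in innervated muscle. Here too the groups did not overlap. It changed by -0.69 (SE 0.12, adjusted p = 0.0158), and by -0.59 without replicate 3 (adjusted p = 0.0201). Aurka and Cdc14a both missed the threshold without replicate 1 (0.0822 and 0.0899) and without replicate 4 (0.0705 and 0.0785). The checkpoint kinase genes Bub1 and Bub1b changed by -0.02 and 0.18, the second of which was -0.03 without replicate 3, and Cdc20, the activator of the anaphase-promoting complex, by -0.17 (SE 0.16). Cdc27, a core subunit of that complex, had the largest positive change of the uncalled members here, 0.30 (adjusted p = 0.199). Bub1, Bub1b and Cdc20 lay in the dimmest 25% of genes.

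Of 16 centromere and kinetochore genes, 1 rose and 1 fell. Cenpj, which despite its name encodes a centriole assembly protein, read 6.02, 6.30, 6.17 and 6.51 in denervated muscle, against 5.41, 5.66, 5.88 and 5.62 in innervated muscle, with no overlap. Its change was 0.61 (SE 0.12, adjusted p = 0.0244) and 0.71 without replicate 3 (adjusted p = 0.00872), and it passed without the pairing as well (0.0369). It missed the threshold without replicates 1, 2 and 4 (0.119, 0.093 and 0.131). Cenpk, a subunit of the constitutive centromere complex, read 4.21, 4.13, 5.03 and 3.87 in denervated muscle and 4.79, 4.66, 5.28 and 4.88 in innervated muscle. Every pair was lower in the denervated muscle, while the groups overlapped because denervated replicate 3 lay above innervated replicates 1, 2 and 4. The change was -0.59 (SE 0.14, adjusted p = 0.0398) and -0.71 without replicate 3 (adjusted p = 0.0162). It was lost without the pairing (0.226), with the pairing as a random effect (0.0771) and without replicates 1, 2 and 4 (0.160, 0.112 and 0.176).

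The other 14 centromere genes ranged from -0.17 to 0.41, with no adjusted p below 0.259. Cenpa, the centromeric histone, read 5.62, 5.49, 6.53 and 5.44 in denervated muscle, against 5.49, 5.53, 5.57 and 5.39 in innervated muscle. Only denervated replicate 3 stood above the rest, and the change of 0.28 was 0.05 without it. Cenpe, a kinetochore motor, changed by 0.20 with all replicates and 0.04 without replicate 3. Cenpb, which binds satellite DNA, changed by -0.06.

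**Figure D3:**
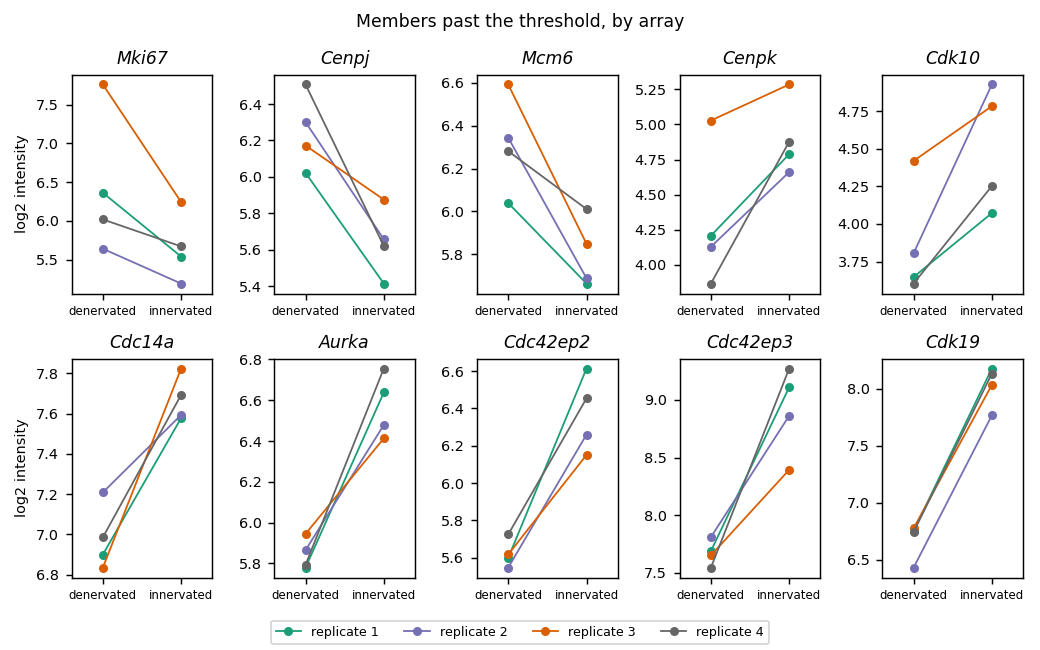
Log2 intensity of the 10 members past the threshold, 1 line per replicate number from denervated (left) to innervated (right), each panel with its own axis. All lines of a panel run the same way; Mki67, Cenpk and Cdk10 overlap between groups, and the other 7 do not.

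The Cdk inhibitors and E2F factors did not pass. None of 6 inhibitors was called by limma, with 1 at an unadjusted p under 0.05, and their median change was -0.21 ± 0.11. Cdkn2c, the inhibitor p18 of the Cdk4 and Cdk6 kinases, read 6.56, 6.33, 6.01 and 6.47 in denervated muscle, against 7.24, 6.62, 6.58 and 6.69 in innervated muscle. The groups did not overlap, and the change of -0.44 had an adjusted p = 0.0678. It passed when the dimmest 25% or 50% of genes were not tested (0.0399 and 0.0280). Cdkn1b, the inhibitor p27, changed by -0.22 (SE 0.11), Cdkn1c, the inhibitor p57, by -0.22 (SE 0.12), Cdkn2a by -0.20 and Cdkn2b by 0.10. Cdkn3, a phosphatase that acts on Cdk kinases, had an interval of -0.33 to 0.33.

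Of 7 E2F factors none was called, and 2 had an unadjusted p under 0.05. E2f6, a repressor of the family, read 7.76, 7.69, 6.72 and 7.24 in denervated muscle and 7.95, 8.01, 7.93 and 8.14 in innervated muscle. Its groups did not overlap; the change was -0.66 (SE 0.18, adjusted p = 0.0719) and -0.47 without replicate 3 (adjusted p = 0.110). It passed with the pairing as a random effect (0.0476), with array weights (0.0265) and after the dimmest 25% or 50% of genes had been removed (0.0391 and 0.0265). E2f5, a factor that acts with the pocket proteins in resting cells, changed by 0.43 (adjusted p = 0.0885), without overlap of the groups, and passed with the pairing as a random effect (0.0327). The activator E2f1 changed by -0.08 (95% interval -0.35 to 0.20), and E2f8 by 0.26 (-0.02 to 0.53).

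The largest changes among the members lay outside the core. Cdk19, a kinase of the Mediator complex that acts on transcription, read 6.75, 6.43, 6.78 and 6.74 in denervated replicates, against 8.18, 7.77, 8.03 and 8.13 in innervated ones. The groups were far apart, with a change of -1.35 (SE 0.10, adjusted p = 0.000558), or 2.55-fold lower, and -1.38 without replicate 3 (adjusted p = 0.000647). Its close relative in the same complex, Cdk8, read 9.16, 9.10, 9.10 and 9.16 in denervated muscle, against 9.03, 8.90, 9.07 and 8.88 in innervated muscle. Cdk8 changed by 0.16 (95% interval -0.08 to 0.40), while the interval of Cdk19 was -1.59 to -1.12; the difference between both changes was not tested. Cdk10, a kinase partner of cyclin M, read 3.65, 3.81, 4.42 and 3.60 in denervated muscle and 4.07, 4.93, 4.78 and 4.25 in innervated muscle. It was lower in every pair at a dim level, with a change of -0.64 (SE 0.15, adjusted p = 0.0374), and of -0.73 without replicate 3 (0.0238). It missed the threshold without the pairing (0.179), with the pairing as a random effect (0.057) and without replicates 1, 2 and 4 (0.110, 0.107 and 0.133). The other 17 of these 19 Cdks and partners ranged from -0.44 to 0.26, among them Cdk5rap2, a centrosome protein, at 0.26 (adjusted p = 0.247).

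Among 16 genes that match by name and act elsewhere, 2 fell, and both encode effectors of Cdc42, a GTPase of the actin cytoskeleton. Cdc42ep3 read 7.69, 7.81, 7.65 and 7.55 in denervated muscle, against 9.11, 8.86, 8.39 and 9.27 in innervated muscle. Denervated values lay close together and well below the others, with a change of -1.23 (SE 0.17, adjusted p = 0.00542), or 2.35-fold lower, and -1.40 without replicate 3 (adjusted p = 0.00201). It missed the threshold without replicate 1 (0.0518). Cdc42ep2 read 5.60, 5.55, 5.62 and 5.73 in denervated muscle and 6.61, 6.26, 6.15 and 6.45 in innervated muscle. It changed by -0.75 (SE 0.12, adjusted p = 0.00924), again without overlap, and by -0.82 without replicate 3 (0.00574). It missed the threshold without replicates 1 and 4 (0.0658 and 0.0502). Cdc42 itself changed by 0.19 (95% interval -0.13 to 0.51). The other 14 genes, which include the RNA polymerase cofactor gene Cdc73 at 0.24, ranged from -0.32 to 0.24.

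Of the 10 called members, only Cdk19 passed whichever replicate number was left out; Mcm6 passed in none of those 4 settings. Leaving out replicate 3 ended 1 of the 10 calls, that of Mcm6, and added none.

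**Figure D4:**
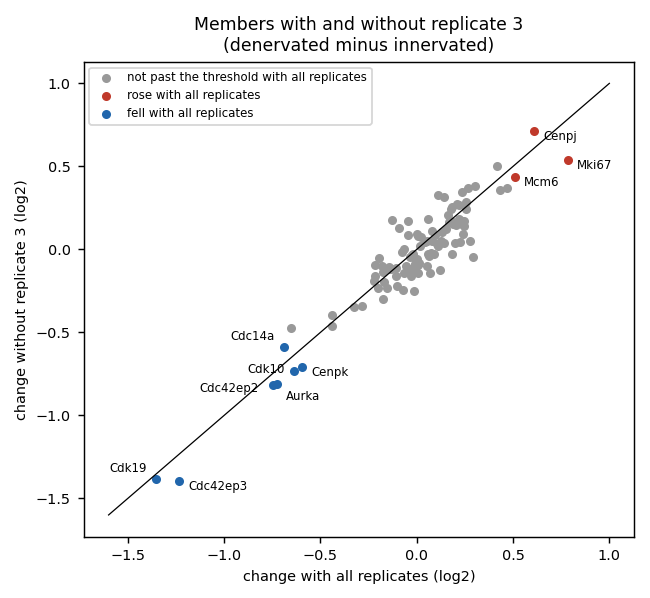
Change of each member with all replicates (horizontal) and without replicate 3 (vertical), denervated minus innervated, log2; the line marks equal values. Cdk19 (-1.35 and -1.38) lies close to the line, Mki67 (0.78 and 0.54) below it and Cenpj (0.61 and 0.71) above it.

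The lift of dim members on denervated replicate 3 was set beside that of all genes of like level. Among genes in the dimmest 25% by mean over all arrays, denervated replicate 3 lay above the mean of the other denervated arrays by a median of 0.58 for the 20 core members and 0.45 for all 3715 genes. It was the highest denervated array for 19 of those 20 core members and for 77.8% of all genes in that range. In the next range, up to the median, the excess was 0.35 for 29 core members and 0.23 for all genes, and in the brightest 25% it was -0.33 for 12 core members and -0.39 for all genes. Set against innervated replicate 3, the median difference of denervated replicate 3 was 0.30 for core members and 0.14 for all genes in the dimmest 25%. It was 0.23 and 0.09 in the next range, 0.12 and 0.03 in the one above the median, and -0.30 and -0.19 in the brightest. Both sets were above 0 in the dimmer ranges and below 0 in the brightest, and the core medians were larger in size in each range. The largest excess was that of Mki67, at 1.75, followed by Cenph at 1.25, Ccne1 at 1.20, Cdc6 at 1.13 and Cenpa at 1.01. The largest deficit was that of Bub3, a checkpoint gene, at -1.56; it read 7.51, 7.37, 5.90 and 7.50 in denervated muscle, against 7.43, 7.09, 6.94 and 7.32 in innervated muscle. Its change was -0.13 with all replicates and 0.18 without replicate 3, neither of which passed. Of the 75 core members, 49 lay below the median level of all genes. Whether the excess of these genes beyond that of others has its source in the tissue or in the array was not tested.

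**Figure D5:**
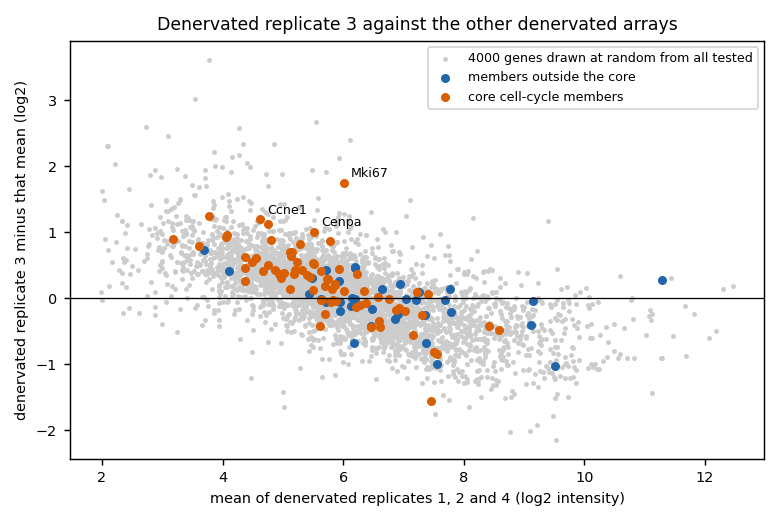
Denervated replicate 3 minus the mean of denervated replicates 1, 2 and 4 (vertical, log2) against that mean (horizontal, log2 intensity) for members and for 4000 genes drawn at random from all tested. The cloud slopes from above 0 for dim genes to below 0 for bright ones and the core members follow it, with Mki67 the highest member at 1.75.

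Other cell-cycle genes were listed for their known roles and not by name pattern. Of 79 listed, 68 were measured; none rose and 1 fell, or 1.47%, against the background of 8.45%, and 10 had an unadjusted p under 0.05 in either direction, against 21.7% of all genes. Of these 68 genes, 38 lay in the dimmest 25% of all genes, where 1.45% of all genes passed, against 22% in the brightest 25%. The difference between the list and all genes was not tested. The gene that fell was Gmnn, which encodes geminin, the inhibitor of origin licensing. This gene was among those in the dimmest 25%. Gmnn read 4.68, 4.64, 4.50 and 4.43 in denervated muscle, against 5.01, 5.42, 5.04 and 5.39 in innervated muscle, a change of -0.65 without overlap (adjusted p = 0.0227). Spc25, a kinetochore subunit, changed by 0.73 without overlap of the groups (adjusted p = 0.0508). Top2a, the topoisomerase of dividing cells, changed by 0.23 with all replicates and by -0.15 without replicate 3. The median change of the list was 0.02 ± 0.12, and -0.06 without replicate 3.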

How the data were processed

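The authors deposited log2 intensities made with GCOS and RMA, per the submitters' processing notes, which also name build mm9. RMA joins background correction, normalization across arrays and a summary over each set's probes; versions and filters were not given in the sources used here. Values come without detection calls, so no gene was scored as absent. Precision is set by the 4 arrays in each group, and all 8 columns were used.

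Of 16755 probe sets, 14996 had 1 gene symbol, 1019 several and 740 none in the platform annotation. The brightest probe set was taken for each of 135 genes with several, which left 14860 genes; each member had 1. All 110 member IDs were found in the RefSeq table of GRCm38.p6 with the same symbol; that build differs from mm9, so only promoter windows carry coordinates.

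limma 3.58.1 in R 4.3.3 fitted group and replicate number, two-sided, with empirical Bayes moderation (3 residual and 4.57 prior degrees of freedom). Replicate number served as a block because the series design sets denervated muscle against the contralateral one. The fit was tested on simulated data with independent noise, equal spread on every array and no replicate effect. That test therefore does not cover the deviation of replicate 3 or the pairing. Members, lists and tests were chosen with earlier results of these data known. Named are all called members, 37 listed by symbol, of which Ccnb1 and Cdkn2d are not analysed here, and per role group the brightest member and both extremes; the others named, with the genes outside the members, were chosen after their values were seen. Cenps was added to its role group on reading the symbols. p-values measure the spread between these arrays, which may be technical.

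Alternatives tried were leaving out each replicate number, array weights, averaged probe sets, median centring, quantile normalization, no block, a random block, and a filter that drops the dimmest 25% or 50% of genes.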

Additional observations from a re-analysis of the deposited data

Results flagged for a closer look

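For the named members and the medians over members, 108 groups of 4 arrays were checked for an array far from the other 3 (Dixon's test at the 95% level), and 12 were found; chance gives about 1 in 20. In 5 of them the array was denervated replicate 3, high in 4 and low in 1. It read 4.39, against 3.54 to 3.65 on the other denervated arrays for Bub1, 4.07, against 3.09 to 3.21 for Ccnb3 and 6.53, against 5.44 to 5.62 for Cenpa. The median over members was 6.03, against 5.86 to 5.89, and Orc3 was low at 8.00, against 8.40 to 8.44. Bub1 and Ccnb3 lie in the dimmest 25% of genes, which as a whole read higher on this array.

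On the other denervated arrays, Cdk19 was low in replicate 2 at 6.43, against 6.74 to 6.78, and E2f1 high in replicate 1 at 5.68, against 5.59 to 5.61. Among innervated arrays, Bub1b was low in replicate 4 at 4.73, against 4.87 to 4.88, as was the median over members at 5.80, against 5.88 to 5.89. Ccnb2 was high in innervated replicate 3 at 5.95, against 5.68 to 5.70, Cdc20 high in replicate 1 at 5.05, against 4.44 to 4.50, and Cdc73 low in replicate 2 at 8.71, against 8.80 to 8.81.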

How the results depend on the processing

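Under the 12 alternatives, no called member turned its direction. Of 42 named members that did not pass, 15 changed sign under at least 1 alternative and 3, Cdkn2c, E2f5 and E2f6, passed under at least 1. Without the replicate block 800 genes passed against 1255 with it, 785 of them shared, and 6 members against 10 (1 higher and 5 lower), all 6 among the 10 and among the named ones. Array weights, lowest for replicate 3, gave 2200 genes and 12 members. The cause of these differences was not tested. With 1 replicate number left out, the count ran from 347 to 1643 genes and from 1 to 9 members, which were all named ones. The members' count was 1 without replicate 1, 5 without replicate 2, 9 without replicate 3 and 2 without replicate 4, and fewer arrays were fitted. Without replicate 3 this was 8.18% of members against 11.1% of all genes. For the other omissions the shares are not set side by side, so those counts show no difference of the members from all genes. After subtraction of the group means, arrays of equal number correlated at 0.23, -0.03, 0.45 and 0.35 for numbers 1 to 4, so the numbers were not shown to pair the samples; innervated 1 and both arrays of number 2 correlated best with another number. Over the same omissions the members' median change ranged from -0.02 to 0.09 and the core's from -0.04 to 0.09. Genes in the dimmest 25%, among them 22 members, cannot be told from background without detection values.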
